A study of Homo sapiens with 6 samples.

Results

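The integrated stress response turns on 1 phosphorylation, that of the alpha subunit of the translation initiation factor eIF2. In MDA-MB-231 cells, 10 genes that carry, write, read or erase this mark, or signal to its kinases, were followed. They were chosen by name: the 4 eIF2 alpha kinases (EIF2AK1 to EIF2AK4), their substrate EIF2S1, the phosphatase subunits PPP1R15A and PPP1R15B, the eIF2B subunit EIF2B5, and OMA1 and DELE1, which carry mitochondrial stress to EIF2AK1. All 10 were matched by symbol among the 63241 genes of the files, and all 10 passed the filter on low counts that left 15295 genes for testing. MDA-MB-231 is a human triple-negative breast cancer line of wild-type genotype in the labels. It was cultured in DMEM with serum and treated for 24 hours either with 5 μM NCD (nitidine chloride, a plant alkaloid) or with 0.1% DMSO, the vehicle control. RNA was sequenced from 3 samples in each of the 2 groups, and the labels do not say whether these came from separate cultures, so the p-values measure only the spread between these samples. For NCD replicates 2 and 3 the cell line field reads MDA-MB-231, whereas the description beside it carries a different number after MDA-MB.

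As background, eIF2 brings the initiator tRNA to the ribosome, and eIF2B recharges it with GTP after each round. Phosphorylation of eIF2 alpha by HRI (EIF2AK1), PKR (EIF2AK2), PERK (EIF2AK3) or GCN2 (EIF2AK4) turns eIF2 into an inhibitor of eIF2B, which lowers general translation and raises translation of a few mRNAs such as that of the transcription factor ATF4. Protein phosphatase 1 (PP1) removes the phosphate when it is guided by GADD34 (PPP1R15A), which ATF4 and its target CHOP induce, or by CReP (PPP1R15B), which is present without stress. The files hold mRNA only, so neither the phosphorylation nor the proteins were measured, and in bulk libraries fewer cells that express a gene and less RNA per cell cannot be told apart.

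The libraries held 18223594 to 21629653 counts. A gene was called at an adjusted p below 0.05 (edgeR's quasi-likelihood test, Benjamini-Hochberg adjustment over all tested genes) and an absolute log2 fold change above 1, the fold threshold of the study. By this rule 2067 genes were higher and 2669 lower with NCD, and scaling by library totals in place of TMM turned this split to 2793 higher and 2181 lower and moved the median log2 fold change of all genes by 0.20. The 4 markers of the line (VIM, CD44, AXL and CAV1) were between 684 and 3156 CPM (counts relative to the TMM-scaled library size) with DMSO, and all 4 passed the test as lower with NCD, with log2 fold changes from -0.21 (VIM) to -1.82 (CD44). ESR1 and PGR stayed at no more than 7 counts in any library, ERBB2 was present at 37.2 CPM with DMSO, and of the leukocyte markers PTPRC and CD3E had at most 1 count and CD14 at most 22 (log2 fold change 1.11, adjusted p = 0.069 from edgeR). Some markers of other cell types passed the test as higher with NCD: the fibroblast collagen COL1A1 (2.86 ± 0.636 to 13.6 ± 1.06 CPM, SD, n = 3 each) and the luminal KRT19 and EPCAM (log2 fold changes 0.63 and 0.57), while DCN, PDGFRA and CDH1 had at most 4 counts. The part of these markers in the results was not tested.

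Among the 10 genes, 1 was called higher, PPP1R15A, and 1 was called lower, EIF2AK4. Of all tested genes 31.0% were called in either direction, 13.5% higher and 17.5% lower, so these 10 were not called more often than genes at large. By the adjusted p alone, without the fold threshold, 3 were higher (PPP1R15A, EIF2AK1 and PPP1R15B) and 4 were lower (EIF2AK4, OMA1, EIF2AK3 and DELE1), against 35.3% and 34.1% of all tested genes, so 7 of 10 stand beside 69.3%. The DMSO and NCD libraries did not overlap for 8 of the 10 genes, and for 72.6% of all tested genes. EIF2S1, EIF2B5 and EIF2AK2 did not pass the test. The median log2 fold change of the 10 genes was -0.05, against 0.04 for all tested genes.

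**Figure D1:**
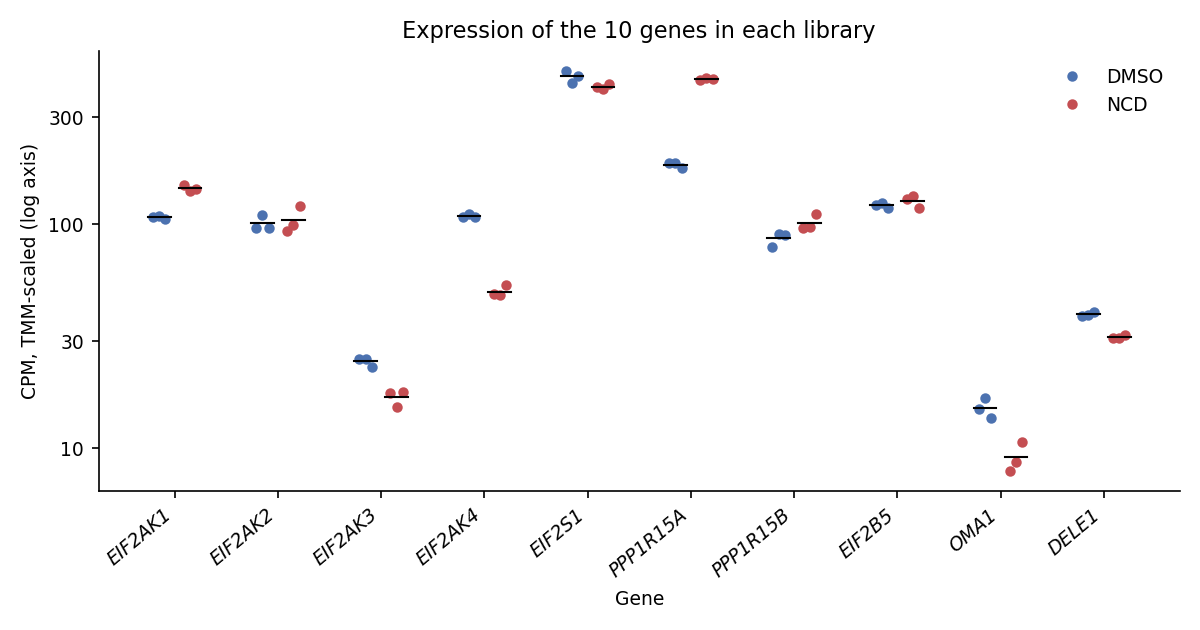
CPM of the 10 genes in each library, on a log axis, with the 3 DMSO libraries in blue, the 3 NCD libraries in red and group means as black lines. PPP1R15A stands between 440.3 and 450.1 CPM with NCD, above 178 to 188 CPM with DMSO, and EIF2AK4 lies between 48.2 and 53.2 CPM, below 107 to 111.

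PPP1R15A encodes GADD34, the stress-induced subunit that brings PP1 to eIF2 alpha and so ends the response (ENSG00000087074, chromosome 19, 48872392 to 48876057, plus strand, GENCODE release 29 on GRCh38). With DMSO it had 187, 188 and 178 CPM, and with NCD 440.3, 450.1 and 443 CPM. The NCD libraries lay close together, and the groups did not overlap. It rose 2.41-fold, with means of 185 ± 5.57 and 445 ± 4.99 CPM (SD, n = 3 each; log2 fold change 1.27, SE 0.05, adjusted p = 1.08e-07 from edgeR). The log2 fold change lay between 1.21 and 1.47 under every alternative setting tried, and the gene was called under each of them.

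PPP1R15B encodes CReP, the constitutive counterpart of GADD34 (ENSG00000158615, chromosome 1, 204403387 to 204411791, minus strand). It had 78.9, 90.2 and 89.6 CPM with DMSO and 96.1, 97.3 and 111 CPM with NCD. The NCD libraries lay above the DMSO libraries, the nearest being 90.2 and 96.1 CPM. The log2 fold change was 0.23 (SE 0.08, adjusted p = 0.0285 from edgeR), and this p did not stay below 0.05 with ribosomal protein genes as reference (adjusted p = 0.346) or without DMSO replicate 1, DMSO replicate 3 or NCD replicate 3, where the log2 fold change was 0.15, 0.23 and 0.15. All 6 libraries gave this gene counts that are not whole numbers, as RSEM gives where reads match more than 1 feature.

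The promoters of these 2 genes are shown because they hold different elements: only the CRE core in PPP1R15A, and that core with the composite element of ATF4 and C/EBP in PPP1R15B. Both elements are known to bind ATF4 and related factors. RefSeq windows of 250 bases before to 50 bases after the gene start were searched on both strands, for 9 of the 10 genes, for TGACGT (the core of the cyclic AMP response element, CRE), TGATGNAA (the core of the composite element of ATF4 and C/EBP), the interferon-stimulated response element (GAAA, any 2 bases, GAAA) and the ER stress response element (CCAAT, any 9 bases, CCACG). Capitals mark the matches in stretches that end before the RefSeq start (GRCh38.p14). The PPP1R15A stretch is chr19:48872239-48872409 on the plus strand, of which the last 18 bases lie inside the GENCODE gene, and the PPP1R15B stretch is chr1:204411874-204412067 on the minus strand.
PPP1R15A: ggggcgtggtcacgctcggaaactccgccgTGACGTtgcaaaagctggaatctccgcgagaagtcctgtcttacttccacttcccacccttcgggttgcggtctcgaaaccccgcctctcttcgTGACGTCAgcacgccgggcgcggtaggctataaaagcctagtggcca
PPP1R15B: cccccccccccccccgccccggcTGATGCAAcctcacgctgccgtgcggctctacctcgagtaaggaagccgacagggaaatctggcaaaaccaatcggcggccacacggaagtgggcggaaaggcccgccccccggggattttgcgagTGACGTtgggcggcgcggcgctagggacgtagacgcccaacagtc
PPP1R15A held TGACGT at 152 and at 58 bases before the start, and the match at 58 overlaps its own mirror image on the other strand, so that the full palindrome TGACGTCA is present. PPP1R15B held TGATGCAA at 227 bases and TGACGT at 101 bases before the start. Of the 35116 promoter windows in the RefSeq table, 7.98% held TGACGT and 3.62% held TGATGNAA, and among the 9 genes 3 and 1 did. The other gene with TGACGT was DELE1, on the opposite strand at 140 bases before the start, whose log2 fold change was -0.34. Among 17 promoter windows of ATF4 and its targets 0 held TGACGT and 5 held TGATGNAA. The ER stress response element was in 0.0769% of all windows and in 0 of the 9. A match describes letters and was not tested as a binding site, and a link between elements and log2 fold changes was not tested.

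The ratio of PPP1R15A to PPP1R15B within a library does not depend on how libraries are scaled. With DMSO it was 2.38, 2.08 and 1.99, and with NCD 4.58, 4.63 and 4.0, in CPM over CPM. The groups did not overlap, and the mean log2 ratio was 1.10 ± 0.13 (SD, n = 3) with DMSO and 2.13 ± 0.12 (SD, n = 3) with NCD, a 2.05-fold difference. An exact two-sided permutation test gave p = 0.1, the smallest p that 3 against 3 libraries allow.

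The PP1 catalytic subunits that both proteins recruit moved in both directions, each by less than the fold threshold. Of the 3 genes, PPP1CA passed the test as higher (log2 fold change 0.41, SE 0.08, adjusted p = 0.00141 from edgeR). PPP1CB (log2 fold change -0.63, SE 0.05) and PPP1CC (-0.53, SE 0.06) passed it as lower, with adjusted p of 8.3e-06 and 4.04e-05 from edgeR.

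EIF2AK4 and EIF2AK1, the kinase mRNAs of highest level per kb of the longest transcript before treatment, changed in opposite directions. EIF2AK4 encodes GCN2, the kinase that senses uncharged tRNA and stalled ribosomes (ENSG00000128829, chromosome 15, 39934146 to 40035591, plus strand). It had 108, 111 and 107 CPM with DMSO and 48.5, 48.2 and 53.2 CPM with NCD, so every NCD library was below every DMSO library. It fell 2.18-fold (log2 fold change -1.12, SE 0.06, adjusted p = 6.13e-07 from edgeR). With library totals as the scaling the log2 fold change was -0.92 (adjusted p = 5.59e-06 from edgeR), under the fold threshold, and in the fits that each left out 1 library it lay between -1.18 and -1.09.

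EIF2AK1 encodes HRI, the kinase that haem and the mitochondrial signal through DELE1 control (ENSG00000086232, chromosome 7, 6022244 to 6059230, minus strand). It had 107, 109 and 105 CPM with DMSO and 149, 141 and 143 CPM with NCD. The groups did not overlap, and the change was a 1.35-fold rise (log2 fold change 0.43, SE 0.05, adjusted p = 9.63e-05 from edgeR). The 16 alternative settings include the main fit without the fold threshold, and the same DESeq2 fit with adjusted and with unadjusted P. The adjusted p of EIF2AK1 was below 0.05 under all 16, and the log2 fold change never reached 1. Its counts carry fractions in all 6 libraries, and its exons overlap those of AIMP2 on the opposite strand, which had up to 1233 counts and a log2 fold change of 0.09 (SE 0.10, adjusted p = 0.485 from edgeR). The strand setting of the counting is not given in the sources used here, so reads of the 2 genes may not be fully told apart.

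EIF2AK3 encodes PERK, the kinase in the membrane of the endoplasmic reticulum (ENSG00000172071, chromosome 2, 88556741 to 88627576, minus strand). It had 25.1, 25.1 and 23.0 CPM with DMSO and 17.6, 15.2 and 17.8 CPM with NCD. The groups did not overlap, and expression fell 1.45-fold (log2 fold change -0.53, SE 0.09, adjusted p = 0.000785 from edgeR). The adjusted p was below 0.05 under all 16 alternatives.

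EIF2AK2 encodes PKR, which binds double-stranded RNA and is itself an interferon-stimulated gene (ENSG00000055332, chromosome 2, 37099210 to 37157065, minus strand). It had 95.8, 110.1 and 96.4 CPM with DMSO and 93.5, 98.7 and 119.9 CPM with NCD. The groups overlapped, with NCD replicate 3 highest and NCD replicate 1 lowest of the 6 libraries. The log2 fold change was 0.05 (SE 0.10, adjusted p = 0.697 from edgeR), and it turned to -0.08 without NCD replicate 3 and to -0.02 without DMSO replicate 1 or DMSO replicate 3. The interferon-stimulated response element lies across the RefSeq start of EIF2AK2, in a stretch whose 30 bases all lie inside the GENCODE gene, and is shown in capitals because other interferon-stimulated genes carry it (chr2:37156967-37156996, minus strand, GRCh38.p14).
EIF2AK2: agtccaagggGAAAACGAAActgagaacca
The element was in 7 of 11 promoter windows of the interferon-stimulated genes listed here, in 1 of the 9 windows of the kinase and phosphatase genes, and in 3.57% of all windows. EIF2AK2 overlaps GPATCH11 on the opposite strand, which had up to 1337 counts.

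To compare the 4 kinases, CPM was divided by the length of the longest annotated transcript. Their summed level was 59.1 ± 1.76 CPM per kb (SD, n = 3) with DMSO and 55.4 ± 2.04 CPM per kb (SD, n = 3) with NCD. EIF2AK1 made up 41.0%, 40.1% and 40.9% of this sum with DMSO and 60.3%, 59.1% and 55.8% with NCD. The share of EIF2AK4 went from 33.5%, 33.1% and 33.8% to 16.0%, 16.4% and 16.8%. EIF2AK3 held 8.89% ± 0.31 (SD, n = 3) with DMSO and 6.53% ± 0.389 (SD, n = 3) with NCD, and EIF2AK2 held 17% ± 0.893 (SD, n = 3) and 18.7% ± 1.95 (SD, n = 3). The groups did not overlap for EIF2AK1, EIF2AK3 and EIF2AK4, each with p = 0.1 in an exact two-sided permutation test, the smallest possible, or 0.133 after Benjamini-Hochberg adjustment over the 4 shares. For EIF2AK2 they did overlap, with exact p = 0.2 in the same permutation test. Per kb, EIF2AK1 was at 1.22, 1.21 and 1.21 times the level of EIF2AK4 with DMSO and at 3.77, 3.60 and 3.32 times with NCD. Shares and ratios depend on the length used. With the union of exons EIF2AK1 and EIF2AK4 stood at 19.3 and 9.09 CPM per kb with DMSO. The share of EIF2AK4 then changed by -11.8 points in place of -17.1, and that of EIF2AK1 by 14.8 in place of 17.7.

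**Figure D2:**
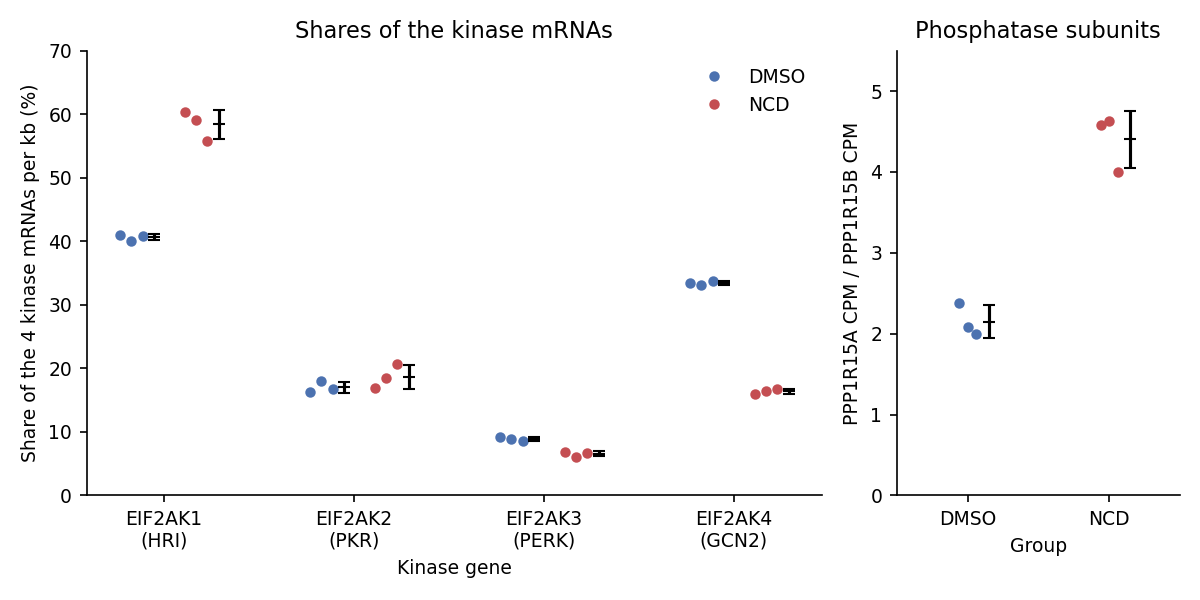
Left, the share of each kinase in the summed mRNA of the 4 kinases per kb (percent), by library, with means ± SD, and right, the ratio of PPP1R15A to PPP1R15B in CPM. With NCD the share of EIF2AK1 stands between 55.8% and 60.3% and that of EIF2AK4 between 16.0% and 16.8%, and the phosphatase ratio lies between 4.0 and 4.63.

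The kinases have known helpers and inhibitors, 7 of which were listed. All 7 passed the test without the fold threshold, 4 as higher and 3 as lower, beside 69.3% of all tested genes. With the threshold 0 were called higher and 2 lower, beside 13.5% and 17.5% of all tested genes. With library totals 1 was called lower in place of 2. DNAJC3, an inhibitor of PERK and PKR, fell from 99.8 ± 9.12 to 38.0 ± 6.12 CPM (SD, n = 3 each; log2 fold change -1.39, adjusted p = 6.93e-06 from edgeR). NCK1, an adaptor that binds PERK and PP1, fell by 1.08 on the log2 scale (adjusted p = 1.13e-05 from edgeR). IMPACT, which keeps GCN2 from its activator GCN1, and ADAR, which edits double-stranded RNA and so restrains PKR, each had a log2 fold change of 0.75. GCN1 itself had a log2 fold change of -0.21 (adjusted p = 0.0315), and the PKR partners PRKRA and TARBP2 had 0.20 and 0.37, with adjusted p of 0.012 and 0.0218 from edgeR.

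EIF2S1, the eIF2 alpha subunit that all 4 kinases phosphorylate, was the most abundant of the 10 mRNAs before treatment (ENSG00000134001, chromosome 14, 67359997 to 67386516, plus strand). It had 483, 427 and 459 CPM with DMSO and 408, 399 and 422 CPM with NCD. The groups did not overlap, yet the nearest libraries, at 427 and 422 CPM, differed by less than the SD within either group. The log2 fold change was -0.16 (SE 0.06, adjusted p = 0.0555 from edgeR) and turned to 0.04 (adjusted p = 0.512) with library totals. The adjusted p was below 0.05 under 5 of 16 alternatives, where the same DESeq2 fit counts both with adjusted and with unadjusted P. It overlaps ATP6V1D on the opposite strand, which had up to 5339 counts and passed the test as higher (log2 fold change 0.28, adjusted p = 0.00662 from edgeR).

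The gamma subunit EIF2S3, which binds GTP and the initiator tRNA, was called lower, while the alpha and beta subunits were not called. It had 195, 199.6 and 198 CPM with DMSO and 82.8, 85.1 and 101 CPM with NCD (log2 fold change -1.14, SE 0.08, adjusted p = 2.11e-06 from edgeR). The beta subunit EIF2S2 had a log2 fold change of -0.16 (SE 0.06, adjusted p = 0.0538). Per kb of transcript, EIF2S1 stood at 1.57, 1.36 and 1.48 times EIF2S3 with DMSO and at 3.14, 2.99 and 2.67 times with NCD (exact two-sided permutation p = 0.1, n = 3 per group, the smallest possible). CDC123, which assembles eIF2 from its subunits, was also called lower (log2 fold change -1.14, SE 0.08). With library totals in place of TMM, only 1 of EIF2S3, CDC123 and the eIF2B subunit EIF2B3 was called lower, in place of all 3. EIF5, which triggers GTP hydrolysis on eIF2, was called higher, from 424 ± 10.5 to 891 ± 67.2 CPM (SD, n = 3 each).

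EIF2B5, the catalytic subunit of the exchange factor eIF2B, did not pass the test (ENSG00000145191, chromosome 3, 184135038 to 184146112, plus strand). It had 121, 124 and 118 CPM with DMSO and 129, 133 and 118 CPM with NCD, and the groups overlapped, since NCD replicate 3 was level with the lowest DMSO library. The log2 fold change was 0.06 (SE 0.06, adjusted p = 0.399 from edgeR), and 0.26 (adjusted p = 0.00397) with library totals. The other subunits did not move together. EIF2B3, which pairs with EIF2B5 in the catalytic part, fell from 34.5, 32.1 and 30.6 CPM to 8.26, 9.0 and 7.97 CPM (log2 fold change -1.95, SE 0.09, adjusted p = 2.17e-07 from edgeR). EIF2B4, in the regulatory part, rose from 38.4, 37.8 and 39.1 CPM to 85.9, 88.6 and 82.3 CPM (log2 fold change 1.16, SE 0.06, adjusted p = 4.7e-07 from edgeR). EIF2B1 and EIF2B2, also regulatory, had log2 fold changes of -0.16 (adjusted p = 0.0518) and 0.05 (adjusted p = 0.588). The EIF2B5 to EIF2B3 ratio per kb went from 1.53, 1.69 and 1.68 with DMSO to 6.81, 6.46 and 6.44 with NCD (exact two-sided permutation p = 0.1, n = 3 per group). Of the 10 listed subunits and partners of eIF2 and eIF2B, 2 were called higher and 3 lower, with a median log2 fold change of -0.37. The shares of all tested genes were 13.5% and 17.5%. The remaining members of the list, EIF2A and EIF2D, passed the test as lower, with log2 fold changes of -0.58 and -0.62. Without NCD replicate 3 the number called higher was 1 in place of 2, and with library totals the number called lower was 1 in place of 3.

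**Figure D3:**
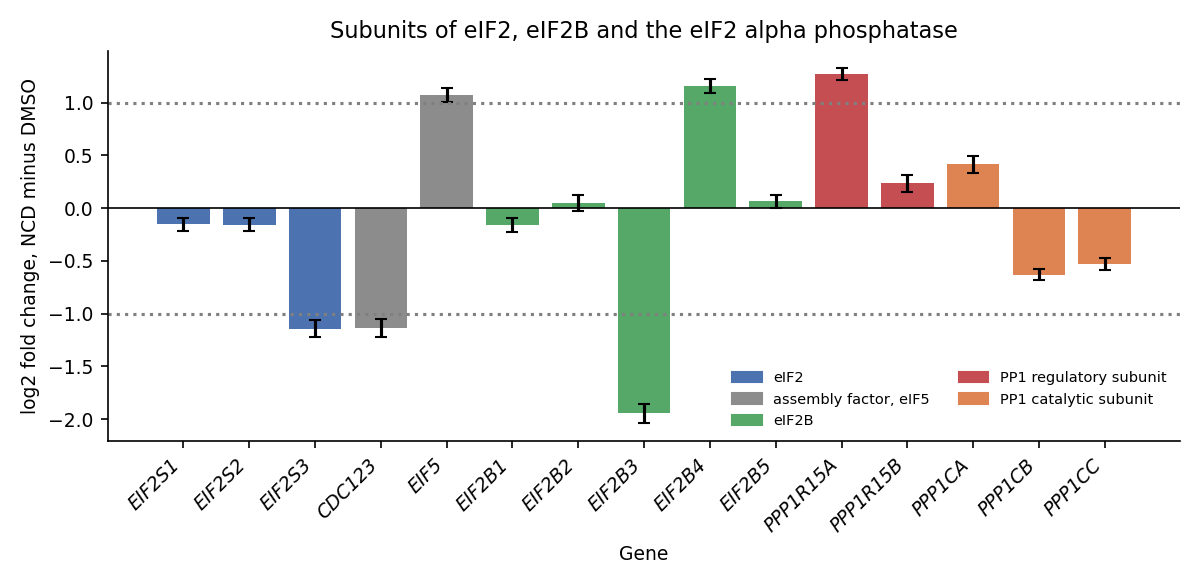
log2 fold change with NCD (bars) and its SE for the subunits of eIF2 (blue), of eIF2B (green), for CDC123 and EIF5 (grey), and for the regulatory (red) and catalytic (orange) subunits of PP1, with dotted lines at the fold threshold. EIF2B3 at -1.95 and EIF2B4 at 1.16 mark the range within eIF2B, with EIF2B5 at 0.06 between them.

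OMA1 and DELE1, the mitochondrial arm that acts on HRI, were both lower. OMA1 is the protease of the inner mitochondrial membrane that cleaves DELE1 under stress (ENSG00000162600, chromosome 1, 58415384 to 58546802, minus strand). It had 15, 16.7 and 13.6 CPM with DMSO and 7.91, 8.69 and 10.7 CPM with NCD, where 168 to 229 counts per library stand behind the NCD values. It fell 1.66-fold (log2 fold change -0.73, SE 0.14, adjusted p = 0.00119 from edgeR), the change with the largest SE of the 10 genes. DELE1, whose cleaved form leaves the mitochondrion and activates HRI, had 39.0, 39.4 and 40.7 CPM with DMSO and 30.9, 31.0 and 31.9 CPM with NCD (ENSG00000081791, chromosome 5, 141923808 to 141942047, plus strand). Replicates of DELE1 lay within 2 CPM of each other in both groups. It fell 1.27-fold (log2 fold change -0.34, SE 0.07, adjusted p = 0.00148 from edgeR). With library totals the log2 fold change was -0.15 (SE 0.07, adjusted p = 0.0936), and with ribosomal protein genes as reference it was -0.36 (SE 0.16, adjusted p = 0.0881).

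Among 11 other genes of mitochondrial proteolysis and protein folding, 1 was called lower and 0 higher, beside 17.5% and 13.5% of all tested genes. That gene was OPA1, the fusion protein that OMA1 also cleaves, which went from 172 ± 24.0 to 54.9 ± 11.1 CPM (SD, n = 3 each; log2 fold change -1.65, adjusted p = 9.86e-06 from edgeR). YME1L1, the protease that degrades OMA1, had a log2 fold change of -0.20 (SE 0.06, adjusted p = 0.0216). The mitochondrial chaperone HSPA9 rose by less than the fold threshold (log2 fold change 0.69, SE 0.06, adjusted p = 5.6e-06 from edgeR), while HSPD1 did not pass the test (log2 fold change -0.14, adjusted p = 0.0867).

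**Figure D4:**
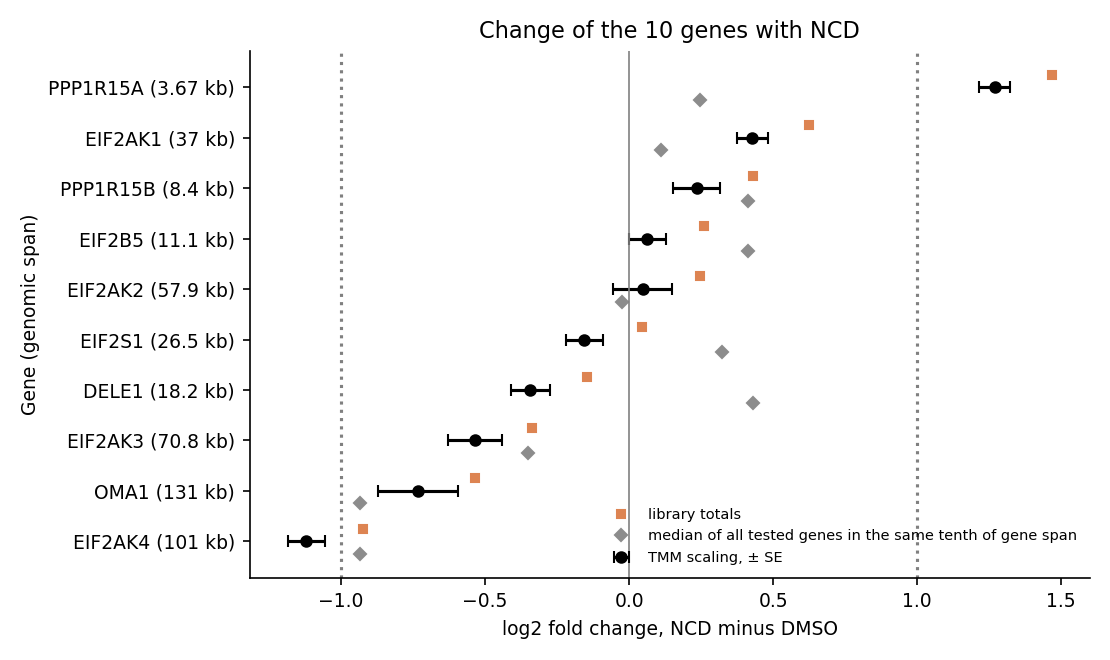
log2 fold change with NCD for the 10 genes, ordered by size, with TMM scaling (black, ± SE), with library totals (orange) and, in grey, the median of all tested genes in the same decile of genomic span. Dotted lines mark the fold threshold. EIF2AK4 crosses the threshold at -1.12 with TMM and lies inside it at -0.92 with library totals, and its decile of span has a median of -0.93.

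Genomic span went with the changes of all genes in these libraries, so it is given beside those of the 10. The 3 members with the longest spans, OMA1 (131 kb), EIF2AK4 (101 kb) and EIF2AK3 (70.8 kb), were the 3 with the lowest log2 fold changes. For the decile of tested genes between 89.7 and 153 kb, which holds EIF2AK4 and OMA1, the median log2 fold change was -0.93, and for that between 58.9 and 89.7 kb, which holds EIF2AK3, it was -0.35. PPP1R15A spans 3.67 kb, and its log2 fold change of 1.27 stands beside a median of 0.25 in the shortest decile. DELE1 (18.2 kb) and EIF2S1 (26.5 kb) had negative log2 fold changes where the medians of their deciles were 0.43 and 0.32. EIF2B3, at 136 kb, and EIF2B4, at 6.13 kb, differ in the same way, whereas EIF2S3 spans 23.3 kb. Among other listed genes called lower, DNAJC3 (118 kb) and OPA1 (105 kb) lay in the decile with the median of -0.93. NCK1 (87.6 kb) lay in the decile with the median of -0.35, and CDC123 (54.6 kb) in one with a median of -0.03. The part of gene span in these changes was not tested.

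Ordered by level per kb of the longest transcript, the DMSO libraries ran from EIF2S1 (102 ± 6.28 CPM per kb, SD, n = 3) over PPP1R15A (77.6 ± 2.34), EIF2B5 (27.5 ± 0.721), EIF2AK1 (24.0 ± 0.462), EIF2AK4 (19.8 ± 0.368), PPP1R15B (16.5 ± 1.22), EIF2AK2 (10.0 ± 0.808), DELE1 (7.98 ± 0.177) and OMA1 (7.18 ± 0.75) to EIF2AK3 (5.25 ± 0.258). Of these neighbours, only DELE1 and OMA1 overlapped between libraries. With NCD PPP1R15A came first, at 187 ± 2.1 CPM per kb (SD, n = 3), ahead of EIF2S1 at 91.3 ± 2.65. EIF2AK1 stood above EIF2B5, and EIF2AK4 stood at 9.08 ± 0.504 CPM per kb, below PPP1R15B and overlapping with EIF2AK2. OMA1 and EIF2AK3 also overlapped. The length matters for some places: with the union of all exons EIF2AK4 stood at 9.09 ± 0.169 CPM per kb in the DMSO libraries, level with EIF2AK2 at 9.37 ± 0.755, since its exons sum to 11.96 kb against 5.5 kb for the longest transcript.

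ATF4 and its targets, the transcriptional output of eIF2 alpha phosphorylation, are known from earlier results of these data to be higher with NCD and are given here only beside the kinases. Of 19 tested members 14 were called higher and 0 lower, beside 13.5% and 17.5% of all tested genes. Their median log2 fold change was 1.62. The 4 with the smallest p were ASNS, asparagine synthetase (100.1 to 635 CPM), CHAC1, a glutathione-degrading enzyme (2.88 to 38.6 CPM), TRIB3, a pseudokinase (24.4 to 93.2 CPM), and SESN2, an inhibitor of mTORC1 signalling (7.39 to 42.6 CPM). The mRNA of ATF4 itself went from 463 ± 27.9 to 705 ± 48.0 CPM (SD, n = 3 each; log2 fold change 0.61, adjusted p = 7.44e-05 from edgeR). DDIT3, which encodes CHOP, rose by a log2 fold change of 2.20 (SE 0.09, adjusted p = 9.66e-08 from edgeR). PPP1R15A, at 1.27, lay below the median of this list. The one member that passed the test as lower was SLC7A11, a cystine transporter (log2 fold change -0.75, adjusted p = 0.00207 from edgeR).

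The other branches of the unfolded protein response, which share endoplasmic reticulum stress with PERK, were mixed. Of 14 tested genes 3 were called higher and 1 lower, beside 13.5% and 17.5% of all tested genes. Their median log2 fold change was -0.21. ATF6, the sensor of a second branch, spans 198 kb and fell from 117 ± 3.61 to 15.1 ± 0.857 CPM (SD, n = 3 each). Its log2 fold change of -2.96 stands beside a median of -2.09 in its decile of span. ERN1, the sensor of another branch, passed the test as higher (log2 fold change 0.45, SE 0.09, adjusted p = 0.00148 from edgeR), under the fold threshold. HERPUD1, DNAJB9 and XBP1 were higher, with log2 fold changes of 1.41, 1.18 and 1.15. The chaperone HSPA5, which holds PERK inactive, had a log2 fold change of -0.17 (SE 0.06, adjusted p = 0.0222 from edgeR). Of the other chaperones and folding enzymes of the endoplasmic reticulum in the list, HSP90B1, PDIA4 and CALR passed the test as lower, with log2 fold changes of -0.51, -0.75 and -0.51. HYOU1 passed it as higher (0.44, adjusted p = 0.000348 from edgeR), and DNAJB11 (0.04, adjusted p = 0.507) and SDF2L1 (-0.25, adjusted p = 0.258) did not pass it.

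Of the 15 interferon-stimulated genes set beside EIF2AK2, 12 were called higher and 0 lower, against 13.5% and 17.5% of all tested genes. Their median log2 fold change was 1.83. IFIT2 went from 20.7 ± 0.894 to 348 ± 17.7 CPM (SD, n = 3 each), and IFIT3, IFIT1 and MX1, which like IFIT2 encode antiviral effectors, had log2 fold changes of 2.84, 2.51 and 2.35. OAS1 and RIGI, an antiviral enzyme and an RNA sensor, were not called, with log2 fold changes of 0.80 and -0.43.

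**Figure D5:**
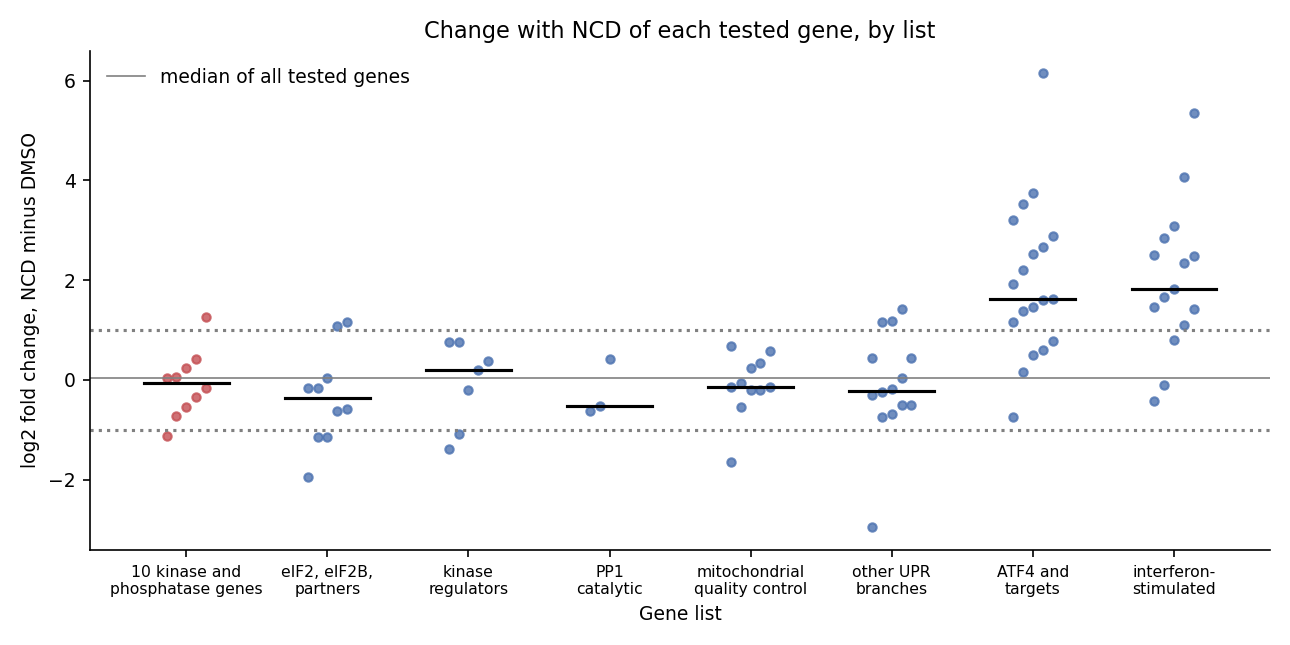
log2 fold change with NCD of each tested gene of the 8 lists (points), with list medians (black) and the median of all tested genes (grey line). The 10 kinase and phosphatase genes centre on -0.05 and run from -1.12 to 1.27, while the medians of the ATF4 and interferon lists are 1.62 and 1.83.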

How the data were processed

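RNA was sequenced from 6 libraries (3 DMSO, 3 NCD). The deposited values are expected counts per Ensembl gene, not normalized, in 1 file per library. The submitters' processing notes name HISAT2, RSEM and GRCh38 (hg38). Annotation release, strand setting and tool versions are not given in the sources used here. In each file 25 lines held no gene and were skipped, and 62666 of 63241 identifiers had a symbol. Coordinates, spans and lengths came from GENCODE release 29 on GRCh38, and promoter windows from RefSeq (GRCh38.p14).

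Expected counts were rounded to whole numbers, filtered with filterByExpr, scaled by TMM and tested with glmQLFit and glmQLFTest of edgeR 4.0.16 in R 4.3.3, with NCD against DMSO as the only term. The SE was derived from each log2 fold change and its F statistic. On simulated counts for this comparison, 199 of 199 genes changed by 2 on the log2 scale were recovered among 15014 genes, with 1 false call. In the data 31.0% of tested genes were called, and the largest absolute log2 fold change of the 10 genes was 1.27. Recovery of changes of that size, or with that share of genes called, was not tested. Ratios and shares were compared by exact permutation tests (scipy 1.17.1). No pair of libraries of a group was alike within sampling noise (chi-square per degree of freedom at least 2.05), and intervals of counts would cover counting error only.

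The members and the gene lists were chosen with earlier results of these data known. Named genes are the 10 members, the genes of the lists of subunits, kinase regulators, PP1 and mitochondrial genes where a value was needed, and the 4 genes of smallest p in the ATF4, unfolded protein response and interferon lists, with the 3 genes closest in pattern to each called member. Markers and genes that overlap a member were added as checks. ATF4, DDIT3, SLC7A11, ERN1, HSPA5, HSP90B1, PDIA4, CALR, HYOU1, DNAJB11, SDF2L1, OAS1 and RIGI lie outside that rule. They were named after their values were seen, and so were the subunit and kinase pairs whose ratios per kb are given. Alternatives were DESeq2 1.42.0 (adjusted and unadjusted P), limma-voom (limma 3.58.1), DESeq2 size factors, library totals, 80 ribosomal protein genes as reference, no filter, 10 or more counts in all libraries, the adjusted p alone, the replicate number as a block, the union of exons or no length for the kinase shares, a pseudocount of 2 CPM for the ratio, and each library left out. For the kinase shares, the block was an alternative chosen after seeing the data.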

Additional observations from a re-analysis of the deposited data

How the results depend on the processing

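The call of PPP1R15A held under all 16 alternatives. These include the main fit without the fold threshold, and the same DESeq2 fit with adjusted and with unadjusted P. With library totals the log2 fold change of EIF2AK4 was -0.92, which left 0 of the 10 genes called lower, that of EIF2S1 turned to 0.0436, and 1 gene each of the eIF2 and kinase regulator lists was called lower. This scaling moves the median of all genes by 0.20. That of EIF2AK2 changed sign without DMSO replicate 1 (-0.016), DMSO replicate 3 (-0.016) or NCD replicate 3 (-0.0841). Over the 6 fits that leave out 1 library it spanned -0.08 to 0.11, and the cause was not tested. The number of eIF2 and eIF2B genes called higher ranged from 1, without NCD replicate 3, to 2.

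Without the fold threshold, which adds smaller changes by construction, 3 of the 10 genes counted as higher and 4 as lower: besides PPP1R15A and EIF2AK4 these were EIF2AK1 (0.43), PPP1R15B (0.23), EIF2AK3 (-0.53), OMA1 (-0.73) and DELE1 (-0.34). The same change gave 5 lower genes of eIF2 and eIF2B, 4 higher kinase regulators, 1 higher and 2 lower PP1 genes, 3 higher and 5 lower mitochondrial genes, 5 higher and 7 lower genes of the unfolded protein response, and 1 lower gene each of the ATF4 and interferon lists. By this rule 35.3% of all tested genes were higher and 34.1% lower.

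Whether same-numbered libraries were paired is not given in the labels, and the main fit treated them as unpaired. Their deviations from group means had correlations of 0.368, -0.332 and 0.015, too few values to settle it. In the fit with a replicate block, the log2 fold change of PPP1R15A was 1.27 and that of EIF2AK4 -1.12, and the block changed no call of the 10 genes. The differences in the ratio of PPP1R15A to PPP1R15B and in the kinase shares kept their direction under every setting tried. Exact tests of 3 against 3 libraries cannot pass 0.05, so they say nothing on stability. Depth limits OMA1 most, at 168 counts in its lowest library.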

Other observations

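Across the 6 libraries, the genes of at least 5 CPM on average whose log2(CPM + 1) followed PPP1R15A most closely were ZNF629, HASPIN and WHAMM (Pearson's r from 0.99969 to 0.99979), and for EIF2AK4 they were MAML2, WDR59 and PPP3CA. With 2 groups such values mostly restate the group difference: 919 genes had r above 0.99 with PPP1R15A and 1491 with EIF2AK4.

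EIF2AK3-DT, a noncoding gene on the opposite strand whose exons overlap those of EIF2AK3, had counts of 41, 34 and 32 with DMSO, and of 58, 56 and 51 with NCD. Without the strand setting of the counting, reads of the 2 genes may not be fully told apart. The log2 fold change of EIF2AK3-DT was 0.35 (SE 0.21, adjusted p = 0.165 from edgeR) beside -0.53 for EIF2AK3, and the difference between them was not tested.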
